A study of Bos taurus with 16 samples.

Results

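The AP-1 transcription factors followed here were FOS, FOSB, FOSL2, JUN, JUNB, JUND, ATF3 and BATF, 8 genes of the 18790 features that carried a single gene symbol and of 24997 features tested on the array. They were taken by symbol from the platform annotation, and each of the 8 genes was measured by 1 transcript cluster, a set of probes along the gene summarised as a single value. RNA came from the spleen of 16 crossbred steers, yearlings at the start of an 84-day feeding trial on a concentrate ration, with 1 Affymetrix Bovine 1.1 ST array per steer. The steers were picked as the animals farthest from the average of their contemporaries in weight gain and feed intake, which gave 4 groups of 4: among the high gain steers, high gain-high intake and high gain-low intake animals, and among the low gain steers, those that ate much (low gain-high intake) and those that ate little (low gain-low intake). After selection the animals were kept together in a pen on the same diet. No animal was treated, so the groups differ in phenotype and, per the study, also in the mix of breeds. The steers of a group are numbered 1 to 4 only to name them, and a number does not link steers of different groups.

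AP-1 is not a single protein but a family of dimers. FOS, FOSB and FOSL2 bind DNA only with a Jun partner, whereas JUN, JUNB and JUND can pair with each other as well as with Fos proteins. FOS, FOSB, JUN, JUNB and ATF3 are immediate early genes, whose transcription starts within minutes of a growth factor, cytokine, antigen or stress signal without new protein synthesis, and JUND is known for a steadier level. In lymphoid organs AP-1 acts with NFAT at cytokine genes of T cells, and BATF, which lacks an activation domain of its own, binds with a Jun protein and IRF4 or IRF8 in T cells, B cells and dendritic cells.

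The values were the deposited log2 signals, on which the authors had stretched the signal distribution, so the log2 differences are those of the stretched scale. Array medians lay between 8.24 and 8.37 and arrays correlated with each other at 0.955 to 0.986 across features. Some markers of B cells, T cells and macrophages were bright, but these do not tell spleen from other lymphoid tissue. On each of the 16 arrays the B cell gene MS4A1 lay above at least 95.2% of all features. The T cell gene CD3E lay above at least 97.4% and the macrophage gene CD163 above at least 94.5%. Other B and T cell markers lay lower, such as PAX5 (at least 49.7%), BLK (58.3%) and CD5 (46.7%). In fat genes the median percentiles were 18.6 for ADIPOQ, 7.21 for LEP and 40.8 for PLIN1. The pancreas gene PRSS2 had 68.8. The spleen holds many cell types in bulk, so fewer cells of a type and less RNA per cell cannot be told apart. The number of arrays limits the precision of all values below.

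The AP-1 genes were among the more variable features of the spleen, with the exception of BATF. The SD over the 16 steers was 1.51 for FOS, more than in 99.6% of features, and 1.36 for FOSB, more than in 99.5%. It was 0.85 for ATF3 (97.6%), 0.73 for FOSL2 (95.9%), 0.62 for JUNB (93.4%), 0.57 for JUN (91.2%) and 0.51 for JUND (87.8%). BATF had an SD of 0.23, more than in only 32.1% of features. The highest and lowest steer differed by 5.49 log2 units in FOS, a 44.8-fold span, and by 0.89 in BATF, a 1.85-fold span.

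**Figure D1:**
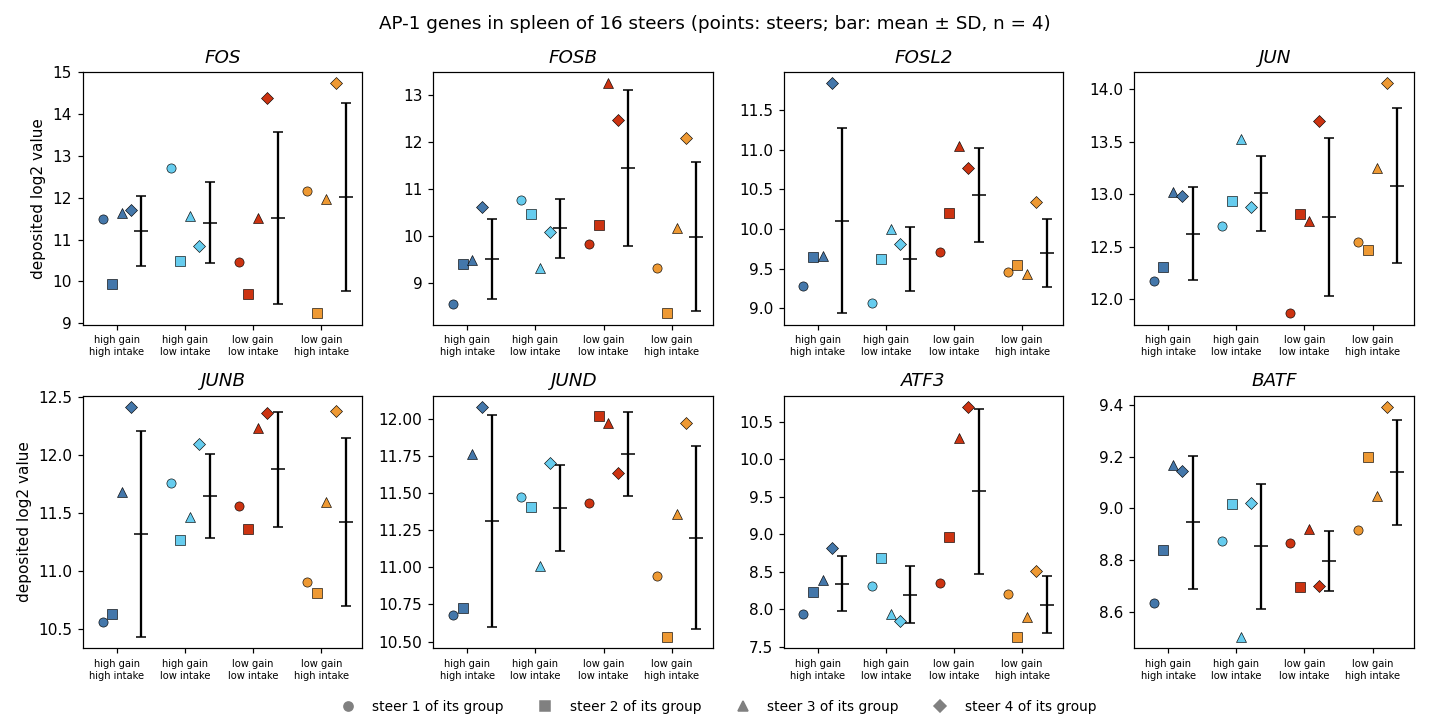
Deposited log2 values of the 8 AP-1 genes (vertical axis, log2) in each steer of the 4 gain and intake groups. Points are steers, with the marker shape naming the steer within its group, and bars give the group mean ± SD (n = 4). ATF3 in low gain-low intake steers 3 and 4 (10.29 and 10.70) stood above all other steers, and FOS was highest in low gain-low intake steer 4 and low gain-high intake steer 4.

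ATF3 was the AP-1 gene that set a group apart most. This factor is induced by many stresses and represses or activates its targets depending on its partner. In the low gain-low intake steers its values were 8.35, 8.97, 10.29 and 10.70. The high gain-high intake steers had 7.94, 8.23, 8.39 and 8.81, the high gain-low intake steers 8.31, 8.69, 7.94 and 7.85, and the low gain-high intake steers 8.20, 7.63, 7.90 and 8.51. Thus 3 of 4 low gain-low intake steers exceeded each of the other 12 animals, and steer 1 lay inside their range, so the groups overlapped. No AP-1 gene separated the low gain-low intake steers fully from the rest, as 0.1% of all features did in the upward direction. The mean of that group was 9.58 ± 1.1 (SD, n = 4). High gain steers averaged 8.34 ± 0.36 with high and 8.20 ± 0.38 with low intake, and low gain-high intake steers 8.06 ± 0.38. ATF3 lay above 37.3% of all features on the array where it ranked lowest and above 78.6% where it ranked highest. The fat gene PLIN1 had a median percentile of 40.8, so whether the lowest ATF3 values lay above background is not known.

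Set against the mean of the other 3 groups, ATF3 was 1.38 higher in low gain-low intake animals (SE 0.33, limma, unadjusted p = 0.000905, adjusted p = 0.530, two-sided exact permutation p = 0.0033). For the single gene, few relabellings of the steers gave a mean difference as large, but the difference did not pass the adjustment over all features. It was smaller than the span of the low gain-low intake steers themselves, from 8.35 to 10.70. ATF3 was also the single member with an unadjusted p under 0.05 in the F test over the 4 groups (p = 0.00764, adjusted p = 1, permutation p = 0.0166), a test in which 4.67% of all features reached that level and 0% an adjusted p under 0.05. Leaving out low gain-low intake steer 3 or steer 4 lowered the difference to 1.14 and 1.0, with an unadjusted limma p of 0.00699 and 0.00697.

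The ATF3 difference set the low gain-low intake group against each group that shared a phenotype with it. Within low intake animals the level was lower by 1.38 with high than with low gain, and within high intake animals the gain difference was 0.28 in the other direction. Within low gain animals, high intake went with a level lower by 1.52, which results from 9.58 in the low intake and 8.06 in the high intake group, whereas within high gain animals the intake difference was 0.15 in the other direction. This difference of differences, the gain by intake interaction, was 1.66 (SE 0.58, limma, unadjusted p = 0.0117, adjusted p = 1, exact permutation p = 0.0305). Among all features 4.65% had an unadjusted interaction p under 0.05, and among the AP-1 genes ATF3 alone did. Averaged over gain, ATF3 was -0.68 in high against low intake animals (SE 0.29, unadjusted limma p = 0.032, adjusted p = 1), where the exact permutation p was 0.115 and 3.4% of features reached an unadjusted p under 0.05. This intake difference kept an unadjusted p under 0.05 in 15 of 24 fits that varied the settings or left out a steer.

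FOSB, a Fos protein whose short form is known from rodents for its long life in neurons, was likewise highest in the low gain-low intake group. Its values there were 9.83, 10.23, 13.26 and 12.47, so steers 3 and 4 held the highest FOSB of all 16 animals. The low gain-high intake steers had 9.31, 8.34, 10.17 and 12.09, the high gain-high intake steers 8.53, 9.39, 9.49 and 10.61, and the high gain-low intake steers 10.77, 10.47, 9.32 and 10.09. Low gain-low intake steers 1 and 2 lay within the range of the other groups. FOSB was 1.57 higher there than in the rest (SE 0.66, limma, unadjusted p = 0.0305, adjusted p = 0.858, exact permutation p = 0.0374), with a mean of 11.45 ± 1.67 (SD, n = 4 in each group). The mean was 9.98 ± 1.60 in low gain-high intake steers, and high gain steers had 10.16 ± 0.63 with low and 9.50 ± 0.85 with high intake. FOSB and ATF3 were the 2 of 8 members with an unadjusted p under 0.05 in this comparison, in which 5.48% of all features were at that level (2.94% with a higher value). The FOSB difference rested on 2 animals. Leaving out steer 3 of this group lowered it to 0.96, with an unadjusted limma p of 0.173, and leaving out steer 4 lowered it to 1.23, with one of 0.117.

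FOS itself, the prototype Fos protein, varied between steers far more than between groups. The low gain-high intake steers had 12.15, 9.24, 11.96 and 14.73 and the low gain-low intake steers 10.46, 9.70, 11.52 and 14.37. Each low gain group thus held both a very high and a very low animal. High gain steers had 11.49, 9.95, 11.63 and 11.71 with high intake and 12.71, 10.49, 11.57 and 10.86 with low intake. Means were 12.02 ± 2.24, 11.51 ± 2.04, 11.20 ± 0.84 and 11.41 ± 0.97 in that order (SD, n = 4), and the F test gave an unadjusted limma p of 0.877. Low gain-low intake animals differed from the rest by -0.03 (SE 0.85, adjusted p = 1). That difference was -0.98 when steer 4 of this group was left out and 0.58 when its steer 2 was left out, so single animals set its sign.

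FOSL2, the Fos protein that lacks a strong activation domain and is known for roles in bone and immune cells, ranged from 9.06 to 11.84. Low gain-low intake steers had 9.70, 10.20, 11.04 and 10.77, and low gain-high intake steers 9.46, 9.55, 9.43 and 10.34. High gain steers had 9.28, 9.65, 9.66 and 11.84 with high intake and 9.06, 9.63, 10.004 and 9.81 with low intake. The group mean was highest in the low gain-low intake animals, but the single highest steer belonged to the high gain-high intake group. The low gain-low intake difference of 0.62 (SE 0.38) had an unadjusted limma p of 0.119, and the interaction of 1.21 (SE 0.65) one of 0.0817, with adjusted p-values of 0.957 and 1. High gain-high intake steer 4 alone moved both values: without it the first was 0.81, with an unadjusted limma p of 0.00444 and an adjusted p of 0.478, and the interaction was 0.64, with an unadjusted p of 0.160. With any one steer left out the interaction ran from 0.64 to 1.49, and with array weights the low gain-low intake difference was 0.70, with an unadjusted p of 0.0386.

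Among the Jun proteins no group difference had an unadjusted p under 0.05. JUN, the strongest activator of the family and the usual partner of FOS, was 13.08 ± 0.74 (SD, n = 4) in low gain-high intake animals, followed by high gain-low intake animals (13.01 ± 0.36), then low gain-low intake (12.78 ± 0.75) and high gain-high intake animals (12.62 ± 0.44). Single steers ranged from 11.86 to 14.06. All neighbours in this order overlapped. JUNB, which is induced with FOS and can restrain JUN, was highest in the low gain-low intake group (11.36 to 12.36, against 10.56 to 12.42 in the others), with a difference from the rest of 0.41 (SE 0.34, limma, adjusted p = 0.978). JUND, the steadier Jun, had its group mean of 11.76 ± 0.28 highest in the same animals, with a difference of 0.46 (SE 0.27, adjusted p = 0.952), and all 4 of these steers lay above the mean of the others but none above the highest of them.

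BATF went the other way. Its mean was 9.14 ± 0.20 in low gain-high intake animals (8.92, 9.20, 9.05 and 9.39) and lowest, at 8.80 ± 0.12, in low gain-low intake animals (SD, n = 4). High gain steers lay between, with 8.95 ± 0.26 at high and 8.85 ± 0.24 at low intake. The low gain-high intake group was thus 0.27 above the rest (SE 0.13, limma, unadjusted p = 0.0491, adjusted p = 1, exact permutation p = 0.0379), where 4.46% of features had an unadjusted p under 0.05. The unadjusted p was above 0.05 under 6 other settings of the fit, so this call did not hold.

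Over the 8 genes, no comparison between groups gave an adjusted p under 0.05, as was true of all 24997 features. All 8 were lower with high than with low gain, from -0.88 for FOSB to -0.07 for BATF, where 47% of all features were higher. Their median was -0.18 and that of all features -0.01. The direction did not hold at both intake levels. At high intake, FOSL2 (0.41), ATF3 (0.28) and JUND (0.11) were higher with high gain, and at low intake JUN (0.23) and BATF (0.06) were. The genes also varied together over the steers, so their directions were not independent. None of the 8 had an unadjusted p under 0.05 for gain, against 6.06% of all features, and adjusted p-values ran from 0.824 to 0.966. For intake 2 members were higher and 6 lower (median -0.22, all features 0.00, with 51.1% of them higher). In low gain-low intake animals 5 were higher and 3 lower (median 0.44, all features 0.00, with 49.5% of them higher). Set against the rest, neither high gain group had a member at an unadjusted p under 0.05, while 3.47% (high intake) and 5.57% (low intake) of features were.

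**Figure D2:**
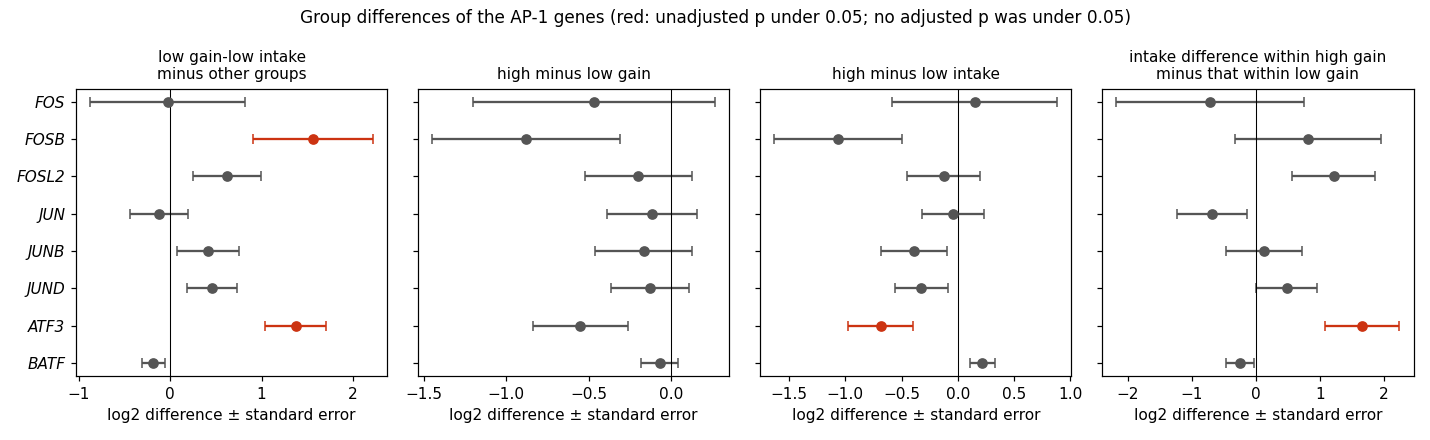
Differences of the 8 AP-1 genes between groups (horizontal axis, log2 difference ± standard error from limma, 16 steers) for low gain-low intake against the other groups, gain, intake and their interaction. Red marks an unadjusted p under 0.05, reached by ATF3 in 3 panels and by FOSB in the first, and no adjusted p was under 0.05.

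The AP-1 genes moved together over the steers much more than they followed the groups. The median Pearson r over their 28 pairs was 0.531, where the median over all 311887800 pairs of features was 0.0045, and 53.6% of the member pairs against 4.29% of all pairs had r over 0.5. Of the 28 pairs, 27 were positive, and 12 had an adjusted p under 0.05 by permutation of the steers (11 with Spearman's rho, Benjamini-Hochberg over 28 pairs). Expressed as deviations from the group means, which takes the group differences out, the median r was 0.612 (all pairs 0.0065), with a range of 0.07 to 0.85.

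JUNB and JUND formed the closest pair (r = 0.852, rho = 0.803, permutation p = 7e-05 and 0.00033, adjusted p = 0.00187 and 0.00574), and without the 2 steers farthest from the median of JUNB r was 0.780. Both genes encode Jun proteins and lie on the same chromosome in the RefSeq table, with 219 protein-coding genes between them. FOSB and ATF3 followed (r = 0.826, rho = 0.753, permutation p = 0.0002 and 0.00101, adjusted p = 0.00187 and 0.00742), although r was 0.588 without the 2 steers farthest from the median of FOSB, low gain-low intake steers 3 and 4. FOSB also went with JUNB (r = 0.797, rho = 0.794, permutation p = 0.00019 and 0.00041, adjusted p = 0.00187 and 0.00574), and here r was 0.787 after its farthest 2 steers were left out.

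FOS and JUN, the classic AP-1 pair, had r = 0.694 and rho = 0.600 (permutation p = 0.00322 and 0.0167, adjusted p = 0.015 and 0.0425). When low gain-low intake steer 4 and low gain-high intake steer 4, which held the highest FOS and the highest JUN, were left out, r was 0.336, so this relation rested on those 2 animals. The same 2 steers carried much of the link of FOS with FOSB (r = 0.595, without them 0.289, rho = 0.468). For FOS and JUNB r fell from 0.599 to 0.383 without these 2 steers, but rho was 0.612 (permutation p = 0.0139, adjusted p = 0.0391). FOS and FOSL2 had r = 0.241 and rho = 0.0853 (permutation p = 0.366 and 0.756, adjusted p = 0.446 and 0.784).

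BATF stood apart from the other members in the values over all steers, but less so within groups. Its 7 pairs ranged from -0.16 with ATF3 to 0.32 with JUNB (median 0.146), and none had an adjusted p under 0.05, whereas the 21 pairs among the other genes had a median of 0.599. As deviations from the group means the BATF pairs had a median of 0.374. They ran from 0.0717 with FOS and 0.175 with JUN to 0.489 with FOSB, 0.614 with JUNB and 0.684 with JUND. In the RefSeq table FOS and BATF are separated only by JDP2, another AP-1 family gene. FOS and JDP2 had r = 0.648 over the steers, JDP2 and BATF 0.0689, and FOS and BATF 0.140, so neighbours did not share one pattern.

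**Figure D3:**
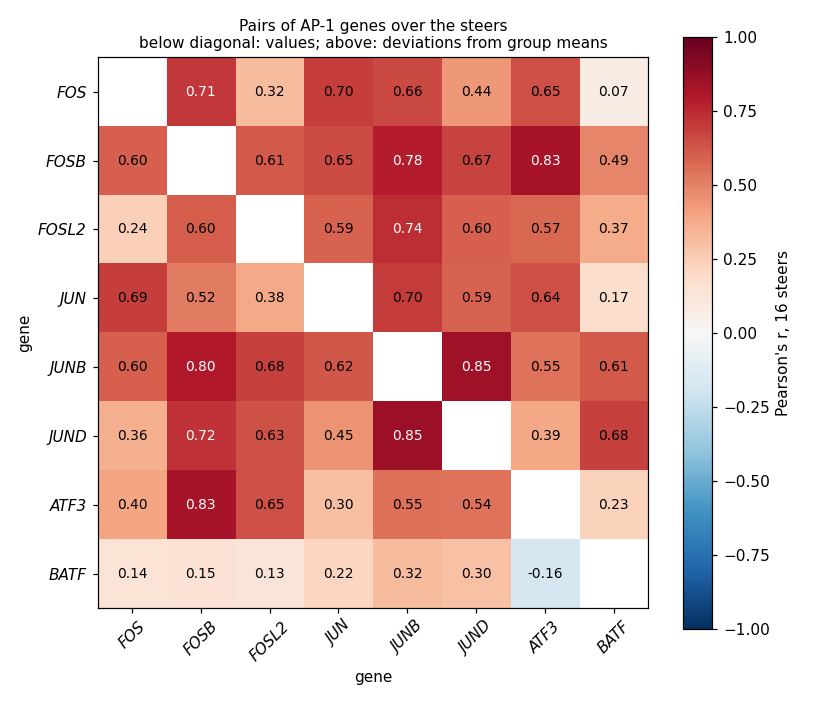
Pearson's r over 16 steers for the 28 pairs of AP-1 genes (colour and number, both axes list the genes), from the log2 values below the diagonal and from deviations from the group means above it. The pair JUNB and JUND reached 0.85 on both sides. The BATF pairs lay between -0.16 and 0.32 below the diagonal and between 0.07 and 0.68 above it.

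**Figure D4:**
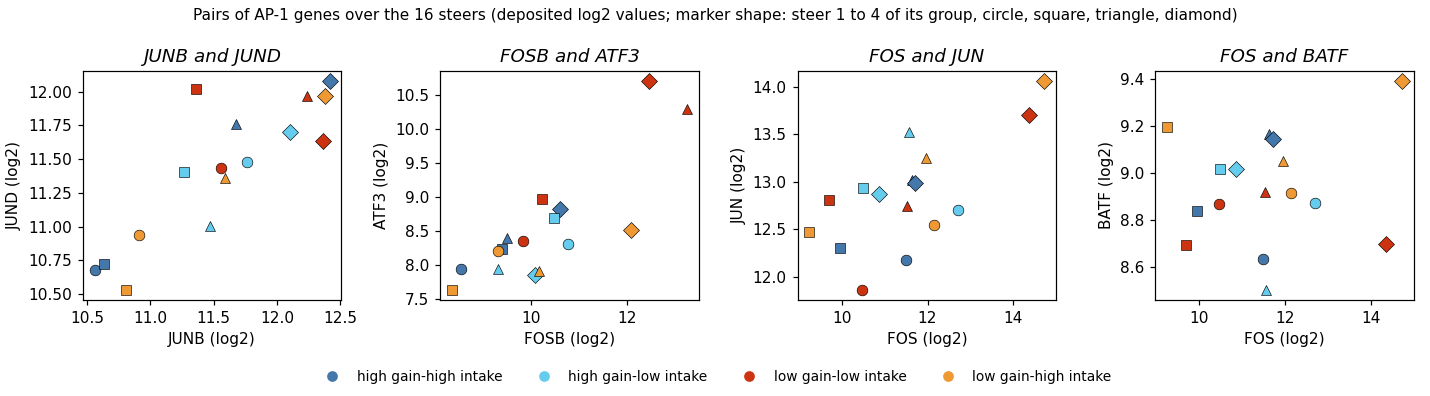
Log2 values of 4 pairs of AP-1 genes, 1 point per steer, coloured by group (axes: log2 value of the gene named). JUNB and JUND lay along a line over all groups (r = 0.852), both steers with ATF3 above 10 had FOSB above 12, the FOS and JUN relation depended on the 2 steers with FOS above 14, and FOS and BATF had r = 0.140.

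The steers at either end of the shared pattern came from different groups. The average used here, which is also the AP-1 mean used below, was of unscaled deviations. FOS (SD 1.51) and FOSB (SD 1.36) therefore weighed most in it and BATF (SD 0.23) least. Averaged over the 8 genes, the deviation from each gene's mean was highest in low gain-low intake steer 4 (1.20), low gain-high intake steer 4 (1.05), low gain-low intake steer 3 (0.86) and high gain-high intake steer 4 (0.56, with all 8 genes above their means). It was lowest in low gain-high intake steer 2 (-0.92), high gain-high intake steer 1 (-0.73) and high gain-high intake steer 2 (-0.67). High and low animals thus occurred side by side within both high intake groups, and the 4 high gain-low intake steers lay close together, between -0.22 and 0.07. The order was not that of the array medians, which were 8.258 in the first and 8.278 in the last of these animals. According to the study's methods the steers were slaughtered over several days with an animal of each group on each day, and the spleen was sampled some time after bleeding. Which steer was slaughtered on which day is not given in these sources, so the part of the day in the shared pattern was not tested.

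Low gain-low intake steer 4 and low gain-high intake steer 4 show how the members parted. Their FOS was nearly equal (14.37 and 14.73), as were JUN (13.70 and 14.06), JUNB (12.36 and 12.38) and FOSB (12.47 and 12.09). ATF3 was 10.70 in the former and 8.51 in the latter. BATF was 8.70 and 9.39, the reverse order.

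Among all other features with 1 symbol, those closest to the mean of the centred AP-1 genes over the 16 steers were PVR (r = 0.910), JDP2 (0.904), TNFAIP3 (0.890), NFKB2 (0.886), PLK2 (0.883), APOLD1 (0.866), ZFP36 (0.857), KLF6 (0.855), JOSD1 (0.854) and EPS15L1 (0.849), chosen for their r. JDP2 encodes a Jun dimerisation protein, TNFAIP3 an inhibitor of NF-kappaB signalling, NFKB2 an NF-kappaB subunit, and ZFP36 a protein that shortens the life of cytokine mRNAs. For FOS alone the closest were DYSF (0.871), ICAM1 (0.861), CXCL3 (0.846), MIR2384 (0.844) and MIR135A-2 (0.841), and JUN ranked 110 in that order. For JUN alone they were STOX2 (0.862), EGR1 (0.836), VKORC1 (0.801), CLDN14 (0.778) and RALGPS1 (0.774). STOX2, MIR2384 and CLDN14 were dim, with mean values of 6.812, 7.463 and 7.581. The fat genes ADIPOQ and PLIN1 had 6.699 and 7.753, so whether these features measured transcript above background is not known.

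Other AP-1 subunits followed the members in part. Of 11 such genes 10 were found, and 7 were higher and 3 lower in low gain-low intake animals, 3 of them higher with an unadjusted p under 0.05, where 49.5% of all features were higher and 2.94% were higher at that level: JDP2 by 0.98 (SE 0.37), FOSL1, the remaining Fos protein, by 0.70 (SE 0.31), and the small Maf gene MAFK by 0.27 (SE 0.10). MAFF was 0.19 higher, and the smallest limma adjusted p of these was 0.801. FOSL1 and MAFF were dim, with median percentiles of 12.6 and 1.17 among all features, at or under the level of the fat gene ADIPOQ (18.6), so whether their probes measured transcript above background is not known. The list's mean per steer correlated with ATF3 at r = 0.823 and with FOS at 0.313, and the relation had an adjusted p under 0.05 for 5 of the 8 members (152 relations of a member with a list, 20000 permutations).

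Genes upstream of AP-1 had few differences in low gain-low intake animals against the rest. Of 10 factors that switch on FOS and JUN, such as SRF and its partners ELK1 and ELK3, none had an unadjusted p under 0.05 there, where 5.48% of all features did. SRF differed by 0.03 (SE 0.20, limma, adjusted p = 0.997). ELK1, ELK3, MEF2A and MRTFB differed by -0.14, -0.35, -0.07 and -0.29. Of 17 MAP kinase genes 16 were found, 6 higher and 10 lower. MAP2K4, a kinase of the JNK branch, was -0.29 (SE 0.11, limma, adjusted p = 0.825) and MAPK8, the kinase JNK1 itself, 0.40 higher (SE 0.16, adjusted p = 0.834), each with an unadjusted p under 0.05, while MAPK10 and MAPK14 differed by 0.14 and -0.17. Over the steers the MAP kinase mean had r = 0.579 with JUN (rho = 0.626), 0.560 with FOSL2 (rho = 0.615) and 0.535 with JUNB (rho = 0.618), and as deviations from the group means 0.754, 0.628 and 0.638. The permutation p of these rho was 0.0112, 0.0127 and 0.0121, with an adjusted p of 0.0888 each, and the adjusted p of r was 0.115, 0.137 and 0.189. No relation of a member with either list's mean had an adjusted p under 0.05. MAPK10 was dim (median percentile 8.13). The array measures the mRNA of these kinases and not their activity.

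Of the 9 partners that bind DNA beside AP-1, none differed in low gain-low intake animals at an unadjusted p under 0.05 (IRF8 0.17, IRF4 -0.37, ETS1 -0.03 and NFATC2 -0.02). Of all features 5.48% did, so a count of none in a list this short says little. ETS2 nevertheless followed the AP-1 mean at r = 0.823 over the steers, and the list's mean correlated with JUNB at 0.714 and JUND at 0.721.

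Among 18 genes that AP-1 is known to induce, 14 were higher and 4 lower in low gain-low intake animals (median 0.15, all features 0.00). CCL2, the monocyte-attracting chemokine, was 3.31 higher (SE 0.96, limma, adjusted p = 0.645), with group means of 14.46 against 10.81 to 11.60. PLAUR, the urokinase receptor, was 1.28 higher (SE 0.34, adjusted p = 0.572), at a median percentile of 33.3, below the fat gene PLIN1 (40.8). IL2, MMP3 and IL6, counted among the higher genes, were dim as well (median percentiles 2.62, 10.9 and 22.5). MMP13, a collagenase regarded as a typical AP-1 target, was -0.32 (SE 0.14, adjusted p = 0.868), but at a median percentile of 19.1 it was as dim as ADIPOQ, and whether it was above background is not known. CXCL8, a neutrophil chemokine, was 0.18 (adjusted p = 0.986). The unadjusted p was under 0.05 for CCL2, PLAUR and MMP13, but not for any other gene of the list, that is for 2 higher genes where 2.94% of all features were higher at that level. Over the steers the list's mean correlated best with JUNB (r = 0.856) and JUND (0.782), then with FOSB (0.767), FOSL2 (0.689) and ATF3 (0.633).

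The other immediate early genes came closest to the AP-1 pattern. All 21 were found and all 21 correlated positively with the AP-1 mean, with a median r of 0.725 where the median of all features was 0.0359 and 54.4% of features were positive. The list's mean correlated with 7 of the 8 members at an adjusted p under 0.05, from FOSB (r = 0.821) and JUNB (0.809) to JUN (0.650), and not with BATF (0.172). For FOS r was 0.780, but rho was 0.491. Without the 2 steers farthest from the median of the list's mean, r was 0.450 for FOS and 0.266 for JUN. In low gain-low intake animals 20 of 21 were higher, against 49.5% of all features, and 4 of them had an unadjusted p under 0.05, against 2.94% of all features. These were the orphan nuclear receptors NR4A3 (2.56, SE 0.76), NR4A1 (1.52, SE 0.67) and NR4A2 (1.15, SE 0.43), and the growth-arrest gene BTG2 (0.64, SE 0.30), with limma adjusted p-values of 0.671 or more. CCN1 was the only one lower (-0.37, adjusted p = 0.986). All 21 followed the AP-1 mean over the steers, so their directions were not independent. The list's mean was 10.71, 10.66, 11.13 and 11.87 in low gain-low intake steers 1 to 4. In low gain-high intake steers it ranged from 9.906 to 11.68, so the groups overlapped.

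Heat shock genes, which HSF1 rather than AP-1 is known to drive, ranked the steers differently. Of 14 genes 13 were found, all 13 were higher in low gain-low intake animals and 9 had an unadjusted p under 0.05 (2.94% of all features were higher at that level), from HSPH1 (2.97), DNAJB4 (2.21) and BAG3 (1.44) to HSPA4 (1.14) among those with the smallest F p, with adjusted p-values of 0.144 or more. The study had already reported heat shock genes, HSPH1, HSPA4 and DNAJB4 among them, as higher in this group from these same arrays. The list was chosen with that known, so these counts are not independent evidence. Most of the 13 encode cytosolic chaperones or their helpers, while HSPE1 (0.70, among the 9) and HSPD1 (0.16) encode chaperones of the mitochondrial matrix. The list's mean per steer was 14.15, 12.91, 13.14 and 13.75 in the low gain-low intake steers and 11.87 to 13.14 in the other 12, so the groups overlapped only through high gain-high intake steer 4 (13.14). Low gain-low intake steer 1 had the highest heat shock mean of all animals, yet ATF3 was 8.35 and FOSB 9.83 there, the lowest of its group. ATF3 and the heat shock mean had a positive correlation over all steers (r = 0.626, rho = 0.579, permutation p = 0.0141 and 0.021, adjusted p = 0.0953 and 0.133), but as deviations from the group means r was 0.0414. With the immediate early list's mean the same 2 values for ATF3 were 0.719 and 0.710.

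**Figure D5:**
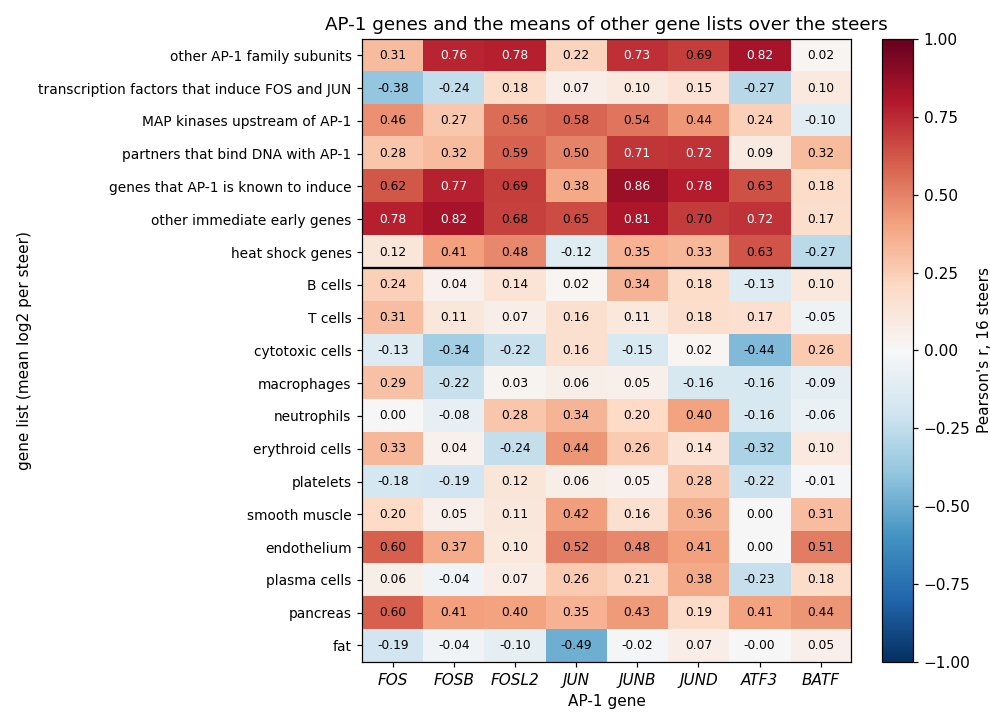
Pearson's r over 16 steers between each AP-1 gene (columns) and the mean log2 value of other gene lists (rows), with pathway lists above the line and cell type marker lists below it. The immediate early row reached 0.82 (FOSB), the heat shock row peaked at ATF3 (0.63), and the marker rows reached at most 0.60.

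Marker lists of the cell types of the spleen and of neighbouring tissue were set beside the members. None of 96 relations of a member with 12 marker lists had an adjusted p under 0.05, while 19 of the 56 with the pathway lists did. The largest r were those of FOS with endothelium (0.601, adjusted p = 0.0953) and with pancreas (0.601, adjusted p = 0.0926). The pancreas list rests on 4 of 5 genes. PRSS2, a trypsinogen gene, ranged from 8.271 to 12.01 (median percentile 68.8) and had r = 0.615 with the AP-1 mean, whereas CPA1, CELA1 and PNLIP, at median percentiles of 16.1, 37.4 and 29.1, had 0.120, -0.390 and -0.218. As deviations from the group means the pancreas mean had r = 0.725 with ATF3 and 0.609 with FOS. The mean ranged from 7.493 to 8.315 in low gain-low intake and from 7.481 to 8.233 in the other animals. All 5 endothelial genes were found, and their mean ranged from 10.88 to 11.07 in low gain-low intake and from 10.47 to 11.79 in the other steers. Of the 5 genes 1 was higher and 4 lower in low gain-low intake animals. Only CDH5 (-0.37, limma, adjusted p = 0.801) had an unadjusted p under 0.05. The neutrophil list, with 6 of 6 genes found, ranged from 8.120 to 10.29 in low gain-low intake and from 8.221 to 9.658 in the other steers, and correlated with ATF3 at -0.16. Cytotoxic cell genes, with 6 of 6 found, were lower in low gain-low intake animals for 5 of 6 (median -0.37, none at an unadjusted p under 0.05), their mean was 9.262 there against 9.55 to 9.602 in the other groups, and it had r = -0.443 with ATF3 over all steers and -0.00293 as deviations from the group means. All 4 smooth muscle genes found were lower as well, with differences from -0.47 to -0.27, without an unadjusted p under 0.05, and the list's mean ranged from 13.48 to 15.36 in low gain-low intake and from 13.72 to 16.32 in the other animals. Among T and plasma cell genes, CD4 (-1.17, limma, adjusted p = 0.800) and JCHAIN (-0.24, adjusted p = 0.800) were lower and SDC1 (0.27, adjusted p = 0.875) higher, each with an unadjusted p under 0.05. CD4 did not stand for its list, as 5 of the 8 T cell genes were higher and 3 lower (median 0.07). Of the 4 plasma cell genes 1 was higher and 3 lower. In this comparison 5.48% of all features had an unadjusted p under 0.05. The fat mean was 7.322 in low gain-low intake steer 1, whose ATF3 was the lowest of its group, and at most 6.897 elsewhere. The part of cell composition in the AP-1 differences was not tested.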

How the data were processed

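Spleen RNA of 16 steers was hybridised to 1 Affymetrix Bovine 1.1 ST array each. In Affymetrix Expression Console the authors corrected probe signals for GC content, stretched them and applied RMA, and they deposited log2 values, 1 per transcript cluster and steer. Transcriptome Analysis Console is also named in the submitters' processing notes, with no program version in these sources. Of 26773 features, 1776 below the first annotated ID were left out. Of the 24997 tested, 18790 had 1 gene symbol and 385 several, from which no gene was named. All 8 members matched the RefSeq table by gene ID, whose positions gave the order of neighbouring genes only.

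Groups came from the sample labels. The limma 3.58.1 fit (lmFit, eBayes; R 4.3.3) held 4 group means and no other term, since slaughter day, strip and breed were not given per steer, and p-values were adjusted by Benjamini-Hochberg over all 24997 features. Single genes were also tested by two-sided exact permutation over the steers (1820 choices of 4 of 16, smallest p 0.000549, or 12870 of 8 of 16) and the F statistic by 100000 resamples. Pairs used 100000 and lists 20000 permutations. Each steer is a separate animal. Genes with 2 clusters had their levels averaged, and the test of the brighter cluster is given. The fit was tested on simulated data. The alternatives were trended robust moderation, ordinary least squares, array weights, median centring, quantile normalization, other sets of features and leaving out each steer.

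Named genes are the 8 members, the 10 features closest to their mean and the 5 closest to FOS and to JUN, and up to 4 genes with the smallest F p of each list. Further list genes (SRF, ETS2, CCN1, HSPD1, HSPE1 and the markers) were chosen after their values were seen. The members and lists were chosen with earlier results of these data known.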

Additional observations from a re-analysis of the deposited data

Results flagged for a closer look

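In FOS, high gain-high intake steer 2 (9.95) lay far below the rest of its group, the nearest of which had 11.49, a gap of 0.877 of the group's range. In FOSL2, high gain-high intake steer 4 (11.84, nearest 9.658, gap 0.851) and low gain-high intake steer 4 (10.34, nearest 9.549, gap 0.871) lay far above theirs. These were 3 of 32 groups of 4 steers examined, and chance gives about 1 in 20. The intake difference of ATF3 differed between high gain and low gain animals by 1.66 (unadjusted limma p = 0.0117, adjusted p = 1, exact permutation p = 0.0305).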

How the results depend on the processing

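For gain, intake, their interaction and low gain-low intake animals, no AP-1 gene reached an adjusted p under 0.05 under any setting tried. The ATF3 difference in low gain-low intake animals kept its direction and an unadjusted p under 0.05 in all 23 alternatives, between 1.0 and 1.78 when a steer was left out (adjusted p 0.206 to 1), and so did the ATF3 interaction (1.29 to 2.07). The count of members at an unadjusted p under 0.05 fell by ordinary least squares from 1 to 0 for intake and from 2 to 1 for low gain-low intake animals. For low gain-high intake animals it fell from 1 to 0 with trended robust moderation, array weights, median centring, quantile normalization, features above the median level and all deposited features. With a steer left out, the counts ran from 1 to 2 for the F test, 0 to 1 for gain, 0 to 2 for intake, 1 to 2 for the interaction, 1 to 4 for low gain-low intake, 0 to 1 for low gain-high intake and 0 to 1 for high gain-low intake animals. FOS in low gain-low intake animals turned to 0.101 with array weights. Leaving out a steer also turned the sign of small differences, with ranges of -0.979 to 0.577 for FOS and -0.429 to 0.183 for JUN in low gain-low intake animals, of -0.928 to 0.0104 for FOS, -0.268 to 0.0471 for JUN and -0.254 to 0.00192 for JUND for gain, of -0.303 to 0.625 for FOS, -0.415 to 0.0115 for FOSL2 and -0.207 to 0.11 for JUN for intake, and of -1.67 to 0.188 for FOS and -0.237 to 0.446 for JUNB for the interaction. The cause was not tested. The median r of the pairs was 0.476 with Spearman's rho, 0.612 within groups, 0.526 after centring, 0.525 after quantile normalization and 0.458 to 0.558 with a steer left out. No paired analysis was possible because the labels carry no replicate numbers and the slaughter day of each steer is not given.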
